A study of Homo sapiens with 47 samples.

Results

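A set of 7 genes known as targets of the splicing regulator RBFOX2 was followed through protein-RNA crosslinking maps of human 293T cells: ENAH, CTNND1, EPB41, NUMB, DNM2, MAP3K7 and EIF4G3. The 7 genes were taken by name from 59675 RefSeq genes on the human chromosomes. A site was assigned to a gene when its midpoint lay in the RefSeq span of the gene on the gene's own strand, in GRCh38 (hg38) coordinates. The genes were named without a threshold on measured values, but with earlier results of these data known, so the choice was not independent of the data. The strand of CTNND1 had to be read from the clusters. Whether RBFOX2 regulates these genes in 293T cells was not measured. The assignment placed 934 of the 117590 RBFOX2 clusters in the 7 genes, which is 0.794% of the list. Each of the 7 genes held between 62 and 297 of them.

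The study applied uSpyCLIP-seq, a crosslinking and immunoprecipitation method that captures a tagged protein with the bound RNA through SpyCatcher. The host was Lenti-X 293T, a line of human embryonic kidney origin, made to express a tagged protein stably; crosslinking used UV-C light, and the RNA of the lysates was cut with RNase I. RBFOX2 was mapped from 10000000 cells with 2 libraries, and PTBP1 from 1000, 10000, 100000 and 10000000 cells with 2 libraries each. SpyCatcher 2.0 and SpyCatcher 1.0 each had 1 library at 20 µg and 1 at 40 µg; which protein they captured is given as PTBP1 by the list names and not by the labels. Catalytically dead dPspCas13b and dRfxCas13d were mapped with the guides EZH2g1 or EZH2g2 and without a guide, with 3 libraries each. All samples therefore share 1 cell line that carries an introduced, tagged protein, and cells without such a protein were not among the groups used here.

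Each group is represented by 1 list of positions, with a strand and no count or score used here. There is thus no spread between replicates, no test could be made, and every interval below is an exact 95% interval that covers counting error of clusters only; neighbouring clusters are not independent. The lists held 117590 clusters for RBFOX2 and 30911, 248168, 769524 and 964422 for PTBP1 from 1000 to 10000000 cells. The 4 SpyCatcher lists held between 16507 and 28586 clusters. Read depth is unknown, so list length stands in for it here. Minus-strand clusters made up 60.2% of the list for RBFOX2 and 69.3%, 61.2%, 55.4% and 54.0% for PTBP1 from 1000 to 10000000 cells; ENAH, EIF4G3, MAP3K7 and NUMB lie on that strand. Of the 17 lists searched, 15 are described.

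RBFOX2 belongs to the RBFOX family, whose RNA-binding domain recognises the letters UGCAUG or GCAUG. Bound upstream of an alternative exon it tends to favour skipping, and bound downstream it tends to favour inclusion, so the place of a site matters as much as its presence. PTBP1, the polypyrimidine tract-binding protein, prefers stretches rich in U and C and mostly represses exons. Several genes studied here carry exons that switch between epithelial and mesenchymal or between non-neural and neural cells, with ENAH the most widely used example. The annotation used here gives gene spans and start sites, not exons, so clusters are placed by distance along the span and not by exon or intron.

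Sequence could be shown only for the windows around annotated start sites, from 250 bases before to 50 bases after a start. RefSeq (GRCh38.p14) gave 8 such windows for 6 of the 7 genes. No RBFOX2 cluster lay in any of the 8 windows. The ENAH window, chr1:225653074-225653373 on the minus strand, held 2 PTBP1 clusters from 10000000 cells, of 7 and 8 nt. It is printed 5′ to 3′ with these clusters in capitals, because it is the only one of the 8 windows with more than 1 cluster of any protein.
ENAH: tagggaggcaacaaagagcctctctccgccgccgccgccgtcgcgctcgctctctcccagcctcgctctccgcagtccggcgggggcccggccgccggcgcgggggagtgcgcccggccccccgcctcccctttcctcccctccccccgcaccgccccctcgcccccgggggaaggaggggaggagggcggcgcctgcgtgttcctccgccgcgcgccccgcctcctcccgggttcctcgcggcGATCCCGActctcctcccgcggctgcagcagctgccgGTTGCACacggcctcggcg
The first cluster, chr1:225653122-225653129, covered the annotated start, and the second, chr1:225653086-225653092, began 32 nt into the transcript. EPB41 had 1 PTBP1 cluster in each of its 2 windows, both on the plus strand. In the upstream window the cluster, chr1:28887146-28887148, came from the 10000000-cell list and began 47 nt into the transcript. In the downstream window the cluster, chr1:28914373-28914384, came from the 100000-cell list and lay before the annotated start. They are shown with up to 10 flanking bases, again with the cluster in capitals.
EPB41 upstream window: caggaacctcTTAa
EPB41 downstream window: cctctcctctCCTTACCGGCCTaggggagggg
None of the 8 windows held the letters GCATG on either strand, while 29.5% of the 35116 windows of all genes did. A look at the RBFOX2 label was possible only in these windows, with the measure chosen after the data were seen. Over all genes, GCATG on the transcribed strand lay within 20 nt of 4 of 271 RBFOX2 clusters (1.48%, 0.404 to 3.74%) and of 27 of 2036 PTBP1 clusters from 10000000 cells (1.33%, 0.876 to 1.92%). Of all stretches of the same length in the same windows, 2.10% around RBFOX2 clusters and 2.42% around PTBP1 clusters held it. In the start-site windows, then, RBFOX2 clusters were not marked by the RBFOX letters, and the intervals of the 2 proteins overlapped. The clusters deeper in the 7 genes could not be read for sequence.

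ENAH encodes Mena, an Ena/VASP protein that promotes elongation of actin filaments at the leading edge of moving cells. The gene (NCBI Gene 55740) spans chr1:225486829-225653878 on the minus strand, 167.05 kb. RBFOX2 left 297 clusters in ENAH, against 95, 307, 645 and 695 PTBP1 clusters from 1000, 10000, 100000 and 10000000 cells. Only 3 of 17588 protein-coding genes held more RBFOX2 clusters, whereas 46 held more PTBP1 clusters from 10000000 cells. In the 1000-cell PTBP1 list ENAH had rank 7, and by RBFOX2 clusters per length it had rank 248. As shares of their lists the ENAH clusters were 0.253% for RBFOX2 and 0.307%, 0.124%, 0.0838% and 0.0721% for PTBP1. The RBFOX2 share was 3.50 times the PTBP1 share from 10000000 cells (3.05 to 4.02), and 0.822 times that from 1000 cells (0.650 to 1.05). ENAH therefore stood out most against the longest PTBP1 list and not against the shortest. SpyCatcher 2.0 gave 58 and 76 ENAH clusters at 20 and 40 µg, and SpyCatcher 1.0 gave 42 and 41. These were between 0.225% and 0.266% of the SpyCatcher lists, a range that contains the RBFOX2 share.

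CTNND1 encodes p120-catenin, which binds cadherin tails and keeps cadherins at the cell surface. The gene (NCBI Gene 1500) spans chr11:57761802-57819540, 57.739 kb, and shares that stretch with the readthrough gene TMX2-CTNND1; its plus strand was read from the clusters themselves. It held 91 RBFOX2 clusters, against 35, 100, 199 and 204 PTBP1 clusters from 1000 to 10000000 cells. At 15.8 RBFOX2 clusters per 10 kb it was second to ENAH, which had 17.8, among the 7 genes. The RBFOX2 share was 3.66 times the PTBP1 share from 10000000 cells (2.83 to 4.71). Against the 1000-cell list it was 0.683 times (0.458 to 1.04), and 0.527 times (0.353 to 0.802) when only clusters on the gene's own strand were counted in the totals. CTNND1 and ENAH thus had the 2 largest ratios to the longest PTBP1 list and the 2 smallest to the shortest, with overlapping intervals at both ends.

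EPB41 and NUMB had the least RBFOX2 signal for their length. EPB41 encodes protein 4.1R, which ties the spectrin-actin network to the plasma membrane, and spans chr1:28887100-29120041 on the plus strand (NCBI Gene 2035, 232.942 kb). It held 67 RBFOX2 clusters, against 15, 115, 358 and 352 PTBP1 clusters from 1000 to 10000000 cells. NUMB encodes an endocytic adaptor that antagonises Notch signalling, and spans chr14:73275216-73458546 on the minus strand (NCBI Gene 8650, 183.331 kb). It held 62 RBFOX2 clusters, against 10, 119, 299 and 358 PTBP1 clusters. These were 2.88 RBFOX2 clusters per 10 kb in EPB41 and 3.38 in NUMB. Relative to the 10000000-cell PTBP1 list, the RBFOX2 share was 1.56 times in EPB41 (1.18 to 2.03) and 1.42 times in NUMB (1.07 to 1.86). Both lay below the other 5 genes, although both intervals overlapped that of MAP3K7.

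DNM2 encodes dynamin 2, the GTPase that pinches vesicles from membranes, and spans chr19:10718079-10831903 on the plus strand (NCBI Gene 1785, 113.825 kb). It held 67 RBFOX2 clusters, against 4, 77, 190 and 202 PTBP1 clusters from 1000 to 10000000 cells. The RBFOX2 share was 2.72 times the PTBP1 share from 10000000 cells (2.03 to 3.60). Of the 7 genes, DNM2 kept the smallest share of its PTBP1 clusters at 1000 cells, though not at 10000 or 100000 cells. At 1000 cells its 4 PTBP1 clusters gave a ratio of 4.40 with an interval from 1.64 to 16.6.

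MAP3K7 encodes TAK1, a kinase that relays TGF-beta and inflammatory signals, and spans chr6:90513579-90587072 on the minus strand (NCBI Gene 6885, 73.494 kb). It held 85 RBFOX2 clusters, against 18, 96, 234 and 297 PTBP1 clusters from 1000 to 10000000 cells. The RBFOX2 share was 2.35 times the PTBP1 share from 10000000 cells (1.82 to 3.0). EIF4G3 encodes eIF4GII, a scaffold of the complex that recruits ribosomes to capped messages, and is the longest of the 7 genes, at chr1:20806292-21176897 on the minus strand (NCBI Gene 8672, 370.606 kb). It held 265 RBFOX2 clusters, against 80, 684, 867 and 838 PTBP1 clusters. The RBFOX2 share was 2.59 times that of PTBP1 from 10000000 cells (2.25 to 2.98). Against 10000 cells it was 0.818 times (0.707 to 0.944), the only one of the 7 intervals in that comparison that lay wholly below 1.

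Together the 7 genes took 0.794% of the RBFOX2 list, against 0.831%, 0.604%, 0.363% and 0.305% of the PTBP1 lists from 1000, 10000, 100000 and 10000000 cells. The SpyCatcher lists at 20 and 40 µg gave 0.667% and 0.707% with SpyCatcher 2.0, against 0.697% and 0.653% with SpyCatcher 1.0. Relative to PTBP1 from 10000000 cells the ratio was 2.60 (2.41 to 2.80). It was 2.19 against 100000 cells, 1.32 against 10000 cells and 0.955 against 1000 cells, where the interval of 0.831 to 1.10 contained 1. The SpyCatcher lists gave ratios between 1.12 and 1.22. The ratio was thus smaller against the shorter PTBP1 lists, and how much of it goes with list length and how much with the protein was not tested.

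Against PTBP1 from 10000000 cells, 5 of the 7 genes had at least a 2-fold higher RBFOX2 share; over the 8512 genes with at least 20 clusters in both lists together, 13.9% did. The median ratio was 2.59 over the 7 genes and 0.618 over all genes compared. None of the 7 genes had a ratio of at most 0.5, which 43.8% of the genes compared had. The genes compared were not matched for their number of RBFOX2 clusters, which was 62 to 297 in the 7 genes. High ratios and high RBFOX2 cluster numbers therefore cannot be told apart here. The 7 genes were also chosen with earlier results of these data known, so their contrast with the background is not independent of the data. Against 100000 cells the count was again 5 of 7, against a background of 16.0%, with EIF4G3 at the threshold with 2.0 (1.74 to 2.30). Against 10000 cells it was 1 of 7, ENAH with 2.04 (1.73 to 2.40), against 7.23%. Against 1000 cells it was 1 of 7, DNM2, against 26.7%. Against SpyCatcher 2.0 it was 0 of 7 at 20 µg and 1 of 7 (EPB41) at 40 µg, where the backgrounds were 21.0% and 16.9%. Against SpyCatcher 1.0 it was 0 of 7 and 2 of 7 (DNM2 and EPB41), where they were 28.3% and 25.2%. Only the 2 longest PTBP1 lists thus gave a count far from its background. The backgrounds themselves are not alike. Genes without a cluster in the list compared were counted as at least 2-fold, whereas each of the 7 genes had clusters in every list. The median ratio over the genes compared rose from 0.618 against PTBP1 from 10000000 cells to 1.22 against 1000 cells. How much of the distance from a background goes with these settings was not tested. All these comparisons share the 1 RBFOX2 list, so these counts are not independent of each other. When shares were taken only of clusters on the gene's own strand, an alternative chosen after the data were seen, ENAH stood at 3.14 (2.74 to 3.61), CTNND1 at 4.23 (3.26 to 5.44) and DNM2 at 3.14 (2.35 to 4.16) against PTBP1 from 10000000 cells. NUMB then had 1.27 with an interval of 0.957 to 1.67 that contained 1. On that measure EIF4G3 fell below 2 against 100000 cells, at 1.84 (1.6 to 2.12), which left 4 of 7. The interval of CTNND1 against 1000 cells then lay wholly below 1. The share over all genes was not computed on that measure, so the 4 of 7 has no background.

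The paralogs of the 7 genes set these counts in context. Of 11 paralogs, 10 held a RBFOX2 cluster, 255 in all. Among the relatives of ENAH, VASP had 0 RBFOX2 and 27 PTBP1 clusters from 10000000 cells, and EVL had 7 and 174, a ratio of 0.330 (0.131 to 0.694). The EVL interval did not overlap that of ENAH. DNM1, the dynamin best known from synapses, had 93 RBFOX2 and 152 PTBP1 clusters, a ratio of 5.02 (3.83 to 6.54), above the interval of DNM2. EPB41L2 had 129 RBFOX2 and 475 PTBP1 clusters, a ratio of 2.23 (1.82 to 2.71), while EPB41L1 had 3 and 106 and EPB41L3 had 4 and 126. Of the 8 paralogs with enough clusters to compare, 2 had a ratio of at least 2 and 5 of at most 0.5, against 13.9% and 43.8% of all genes compared. Whether a paralog is transcribed in these cells was not measured, so a low count and low expression cannot be told apart.

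Of 14 other genes with exons linked to RBFOX proteins, 12 held a RBFOX2 cluster, 389 in all. The most were in PTBP2, the neural relative of PTBP1, with 135, in MBNL1, a splicing regulator, with 74, and in PICALM, a clathrin assembly protein, with 44. A ratio of at least 2 against PTBP1 from 10000000 cells was found in 3 of the 12 that could be compared: PTBP2 at 2.69 (2.20 to 3.28), ATP5F1C at 2.13 (1.23 to 3.52) and ECT2 at 2.03 (1.35 to 3.0). The background was 13.9%. MYH10, which encodes a non-muscle myosin and was named after its value was seen, had an interval wholly below 1, at 0.586 (0.381 to 0.866). FN1 and CACNA1C, named because they were the only ones of the 14 without one, held no RBFOX2 cluster. From 10000000 cells FN1 held 4 PTBP1 clusters and CACNA1C held none. Whether these 14 genes are transcribed in these cells was not measured. The median ratio of the 12 was 1.17, between that of the 7 genes and the 0.618 of all genes compared.

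Relative to 10000000 cells, PTBP1 cluster numbers in the lists from fewer cells changed unequally among the genes. At 100000 cells EIF4G3, at 103.5%, and EPB41, at 101.7%, had slightly more clusters than at 10000000 cells. MAP3K7 was lowest there with 78.8%, against 79.8% for the whole list. At 1000 cells ENAH kept 13.7% of its 10000000-cell cluster number and CTNND1 17.2%, against 3.21% for the whole list. EIF4G3 was at 9.55%, MAP3K7 at 6.06% and EPB41 at 4.26%. NUMB, at 2.79%, and DNM2, at 1.98%, fell below the whole list. At 10000 cells EIF4G3 was highest with 81.6%, against 25.7% for the whole list, and the other 6 genes lay between 32.3% and 49.0%. The 1000-cell clusters of a gene need not be the same clusters as those at 10000000 cells, and these are ratios of counts. List length and cell number cannot be told apart in them. Between SpyCatcher versions, ENAH had 1.38 and 1.85 times as many clusters with version 2.0 as with version 1.0 at 20 and 40 µg, while the whole lists gave 1.52 and 1.57. CTNND1 had 1.06 and 0.950 times as many. DNM2 had 10 against 5 and 15 against 3, EPB41 8 against 5 and 7 against 4, and NUMB 13 against 8 and 13 against 7 clusters. In each pair of counts of these 3 genes version 2.0 was higher, as in the whole lists.

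Along the genes, RBFOX2 clusters were unevenly spread. The densest window of each gene was picked by its RBFOX2 count. That choice raises the RBFOX2 share of the window, also relative to the PTBP1 share set beside it. In ENAH the densest 5-kb window, chr1:225514729-225519728, lay 134.15 to 139.149 kb from the 5′ end and held 52 of the 297 RBFOX2 clusters. That is 17.5% of the clusters in 2.99% of the span. The same window held 88 PTBP1 clusters from 10000000 cells, 12.7% of those in the gene. At 1000 cells it held 25 of 95 PTBP1 clusters, and in SpyCatcher 2.0 at 40 µg 25 of 76. The densest stretch of ENAH for RBFOX2 was thus dense for PTBP1 as well, and its share of the gene's clusters was larger still in the 1000-cell PTBP1 list and in SpyCatcher 2.0 at 40 µg. Within it, 32 RBFOX2 clusters followed each other at gaps of at most 50 nt over 869 nt, chr1:225517251-225518119.

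In MAP3K7 and DNM2 over 40% of the RBFOX2 clusters fell in 1 such window. The MAP3K7 window, chr6:90574990-90579989, lay 7.083 to 12.082 kb from the 5′ end and held 36 RBFOX2 and 106 PTBP1 clusters from 10000000 cells, 42.4% and 35.7% of those in the gene. The DNM2 window, chr19:10808462-10813461, lay 90.383 to 95.382 kb from the 5′ end and held 30 RBFOX2 and 65 PTBP1 clusters, 44.8% and 32.2%. The CTNND1 window, chr11:57814541-57819540, was the last 5 kb of the gene and held 28 RBFOX2 and 79 PTBP1 clusters, 30.8% and 38.7%. NUMB and EPB41 had fewer clusters in their densest windows. The NUMB window, chr14:73305613-73310612, held 17 RBFOX2 and 92 PTBP1 clusters, and the EPB41 window, chr1:29068619-29073618, held 12 and 50.

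EIF4G3 was the exception against the 10000000-cell list. Its densest RBFOX2 window, chr1:21025058-21030057, held 19 RBFOX2 and 47 PTBP1 clusters from 10000000 cells. The densest PTBP1 window of the gene, chr1:20932780-20937779, began 239.118 kb from the 5′ end, against 146.84 kb for the RBFOX2 window, and held 7 RBFOX2 and 70 PTBP1 clusters. In the other 6 genes the 2 windows overlapped. With the 100000-cell and 10000-cell PTBP1 lists they overlapped in 5 genes, since the densest PTBP1 windows of EPB41, chr1:29060512-29065511 and chr1:29004361-29009360, lay elsewhere too. Over the 525 genes of at least 2 windows' length with at least 50 RBFOX2 clusters, the 2 windows overlapped in 67.8%. The RBFOX2 window held 3.55 (CTNND1) to 10.2 (DNM2) times its share of the span, against a median of 6.69 over these 525 genes. ENAH at 5.85, EIF4G3 at 5.31, MAP3K7 at 6.23 and CTNND1 lay below that median. EPB41 at 8.34, NUMB at 10.1 and DNM2 lay above it.

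Counted in 5-kb bins, RBFOX2 and PTBP1 from 10000000 cells had Spearman coefficients from 0.68 in NUMB (37 bins) to 0.89 in ENAH (34 bins). The median over the 525 genes was 0.82, and the median between the PTBP1 lists from 10000000 and 10000 cells was 0.87. Bins of a gene share its transcript level and base composition, so these coefficients describe the profiles and carry no p-value. Every bin with a RBFOX2 cluster held a PTBP1 cluster as well in 6 of the 7 genes; DNM2 had 1 bin that did not. In the reverse direction, 17 of the 37 bins of NUMB and 18 of the 75 bins of EIF4G3 held PTBP1 clusters and no RBFOX2 cluster.

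The last 20% of the span held 204 of the 934 RBFOX2 clusters (21.8%, 19.2 to 24.6%), and 24.0% of the PTBP1 clusters from 10000000 cells. The genes differed widely around that value. NUMB had 53.2% of its RBFOX2 clusters there (40.1 to 66.0%) and 49.7% of its PTBP1 clusters. MAP3K7 had 1.18% (0.0298 to 6.38%) and 8.75%, and EIF4G3 2.64% (1.07 to 5.37%) and 5.49%. In ENAH the shares were 31.0% for RBFOX2 and 31.7% for PTBP1. CTNND1 had 30.8% of its RBFOX2 clusters there (21.5 to 41.3%) and 40.7% of its PTBP1 clusters. The first 20% held 27.4% of RBFOX2 clusters and 21.1% of PTBP1 clusters from 10000000 cells. Against that list the widest gaps were in CTNND1, at 30.8% and 18.1%, and EIF4G3, at 35.1% and 24.5%. From 100000, 10000 and 1000 cells the PTBP1 share in the 7 genes was 24.6%, 29.8% and 29.6%. The SpyCatcher lists gave 22.7% to 28.7%. The RBFOX2 share was thus not higher than that of the 10000-cell and 1000-cell lists. In EIF4G3 the PTBP1 share from 10000 cells was 35.8%, while in CTNND1 it stayed below 30.8% in each PTBP1 list. In the SpyCatcher lists the CTNND1 share was 15.0% to 35.3%, the highest from 6 of 17 clusters with SpyCatcher 1.0 at 20 µg. No intervals are given for the shares of the first 20%. The final 2000 nt held 16 of the 91 RBFOX2 clusters of CTNND1, 17.6% in 3.46% of the span. The same 2000 nt held 40.0%, 27.0%, 11.6% and 14.7% of its PTBP1 clusters from 1000 to 10000000 cells. In the SpyCatcher lists they held 35.3% to 44.4%, so this concentration was not particular to RBFOX2. Of RBFOX2 clusters, the final 2000 nt held 7 in ENAH, 1 each in DNM2 and EPB41, and 0 in EIF4G3, MAP3K7 and NUMB.

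At the level of single clusters, 734 of the 934 RBFOX2 clusters (78.6%, 75.8 to 81.2%) shared at least 1 nt, strand for strand, with a PTBP1 cluster from 10000000 cells. These PTBP1 clusters covered 2.43% of the 7 spans. NUMB was highest with 60 of 62 (96.8%, 88.8 to 99.6%) and EPB41 lowest with 44 of 67 (65.7%, 53.1 to 76.8%), and these 2 intervals did not overlap. ENAH had 238 of 297 (80.1%, 75.1 to 84.5%), with MAP3K7 at 87.1%, DNM2 at 85.1%, CTNND1 at 74.7% and EIF4G3 at 72.8%. Over the whole RBFOX2 list the share was 81.6%, and over the 532 genes with at least 50 RBFOX2 clusters its median was 82.5%, with 70.7% and 93.4% at the 10th and 90th percentiles. NUMB lay above and EPB41 below that range; the other 5 genes lay within it. In the other direction, 582 of the 2946 PTBP1 clusters (19.8%) overlapped a RBFOX2 cluster. The same share over the whole PTBP1 list is not given here, so this value cannot be called particular to the 7 genes.

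The overlap depended on the PTBP1 list. The share was 12.8%, 52.2%, 77.9% and 78.6% for 1000, 10000, 100000 and 10000000 cells. For the SpyCatcher lists it was 11.6% and 12.7% with version 2.0 and 7.49% and 8.24% with version 1.0 at 20 and 40 µg. The lists also cover different shares of each gene, so list length and cell number cannot be told apart in these values. A share over the whole RBFOX2 list is given here only against 10000000 cells. The shares against the other lists therefore cannot be called particular to the 7 genes.

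Of the 934 RBFOX2 clusters, 23 overlapped a cluster in all 8 PTBP1 and SpyCatcher lists. ENAH held 9 of them, CTNND1 5, EIF4G3 4, MAP3K7 3, NUMB 2, and DNM2 and EPB41 0. In ENAH 6 of the 9 lay in the dense stretch, between 225517353 and 225518048, including the widest RBFOX2 cluster of the gene, chr1:225517964-225518048, of 85 nt. PTBP1 clusters of up to 149 nt from 10000000 cells overlapped it. In EIF4G3 all 4 lay within chr1:21143245-21143363, and in CTNND1 4 of the 5 within chr11:57818017-57818318, in the final 2000 nt. The number of clusters in all lists cannot exceed the 70 of 934 that overlapped a cluster of SpyCatcher 1.0 at 20 µg. The same share over the whole RBFOX2 list is not given here. All of these clusters in EIF4G3, and most in ENAH and CTNND1, were close together. The others in ENAH lay 26.443 to 109.406 kb from the 5′ end, outside the dense stretch.

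Clusters seen with RBFOX2 alone were a small part of those in the 7 genes. In all, 117 RBFOX2 clusters overlapped none of the 8 lists, and 33 (3.53%) had none of them within 50 nt. The same shares over the whole RBFOX2 list are not given here, so these values cannot be called particular to the 7 genes. EIF4G3 held 14 of the 33, ENAH 7, DNM2 4, CTNND1 and EPB41 3 each, MAP3K7 2 and NUMB 0. The most isolated, a cluster of 3 nt in DNM2 at chr19:10745480-10745482, was 3376 nt from the nearest cluster of another list. The 33 clusters were narrow, between 3 and 6 nt, with 16 of them 3 nt wide, while the median width in the RBFOX2 list was 6 nt.

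The genes most like ENAH over the 9 RBFOX2, PTBP1 and SpyCatcher lists were found by the Euclidean distance of their log2 shares, with a pseudocount of 1 cluster, among 506 other protein-coding genes with at least 50 RBFOX2 clusters. They were HELLS at a distance of 1.11, RBM26 at 1.19, EIF4G3 at 1.64, AMOT at 1.66 and MYCBP2 at 1.67. HELLS had 344 RBFOX2 and 526 PTBP1 clusters from 10000000 cells, and RBM26 had 181 and 460. EIF4G3 was therefore the only other one of the 7 genes among the nearest 5.

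The dead Cas13 lists, of fewer and much wider sites, held few sites in the 7 genes. Without a guide the 7 genes took 0.234% of the dPspCas13b list and 0.0712% of the dRfxCas13d list, against 0.305% for PTBP1 from 10000000 cells. These shares were 1.69% and 0.104% with EZH2g1, the first from 1 site, and 0.160% and 0.100% with EZH2g2. With the guide EZH2g1, EIF4G3 held 1 site in the dPspCas13b list, chr1:20806638-20806774, and 1 in the dRfxCas13d list, chr1:20806601-20806822, both about 0.4 kb from the 3′ end, so the site of the first protein lay inside that of the second. Neither protein had an EIF4G3 site with EZH2g2 or without a guide. With EZH2g2, CTNND1 held 1 dPspCas13b site, and MAP3K7 and DNM2 1 dRfxCas13d site each. Without a guide, dPspCas13b had 7 sites in ENAH, 3 in EPB41 and 1 in NUMB, and dRfxCas13d had 1 each in MAP3K7 and DNM2. The lists differ in length, from 59 sites for dPspCas13b with EZH2g1 to 4701 without a guide, so no order of guides can be read from these counts.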

How the data were processed

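Reads were trimmed with Trim Galore 0.0.6 and aligned with STAR 2.7.9a to hg38, per the submitters' processing notes; the caller and its thresholds are not named in the sources used. Positions (chromosome, start, end and strand) are what the deposited files hold, 1 list for each group. The 7 genes, the lists of paralogs and of linked genes, and the measures were chosen with earlier results of these data known. Gene spans came from RefSeq; strand came from the promoter table for 27304 genes and from at least 3 PTBP1 clusters with 90% on 1 strand for 3201, with 88.9% of 10104 genes that had both alike. Counts per gene were divided by the list total. Ratios have exact binomial and shares Clopper-Pearson 95% intervals. Genes were compared where both lists together held at least 20 clusters. Named genes were the 7 genes, their paralogs, linked genes with a ratio of at least 2 or the 3 most RBFOX2 clusters, and the 5 genes nearest to ENAH; MYH10, FN1 and CACNA1C, of the linked genes, were named after their values were seen. Assignment, overlap, strand, width and the list compared were varied. The scripts ran in Python 3.11.15 with scipy 1.17.1, pandas 2.3.3 and numpy 2.4.6, and were tested on simulated data.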

Additional observations from a re-analysis of the deposited data

Results flagged for a closer look

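ENAH held 7 sites in the dPspCas13b list without a guide, a list that enters none of the comparisons of RBFOX2 with PTBP1. This is above the 3 sites that a count of 0 allows, but that bound is no background for a gene of 167.05 kb. How many genes held as many sites is not given here. The 7 sites were not all separate places. The site chr1:225494205-225494336 overlapped chr1:225494296-225494407, and chr1:225496455-225496609 overlapped chr1:225496527-225496650. The 7 sites were 112 to 155 nt wide and lay 2.585 to 9.761 kb from the 3′ end of the gene, outside the window densest in RBFOX2. One of them held a RBFOX2 cluster, and 6 held between 1 and 4 PTBP1 clusters from 10000000 cells. Their cause was not tested.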

How the results depend on the processing

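The ratio of RBFOX2 to PTBP1 shares over the 7 genes, 2.60, moved beyond its interval to 2.32 without ENAH, 2.40 with clusters at least 10 nt wide, and 2.19 and 1.32 against PTBP1 from 100000 and 10000 cells. It turned below 1, to 0.955, against 1000 cells, and was 1.19 and 1.12 against SpyCatcher 2.0 and 1.14 and 1.22 against SpyCatcher 1.0 at 20 and 40 µg. Without EIF4G3, with any overlap, either strand, own-strand totals, merged clusters or other genes' sites left out it stayed between 2.51 and 2.68. The overlap of 78.6% became 62.1% when a RBFOX2 cluster had to lie inside a PTBP1 cluster, 91.1% within 50 nt, 96.7% among clusters at least 10 nt wide, and 52.2% and 12.8% against 10000 and 1000 cells. The share of 21.8% in the last 20% of the spans became 25.8% with clusters at least 10 nt wide, 17.6% without ENAH and 29.4% without EIF4G3; the last 10% held 8.57%. Causes were not tested. No paired analysis was possible because each group has 1 list, and for the same reason no replicate could be left out. Lists without read counts limit every value to the number of clusters.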
